A study of Mus musculus with 6 samples.

Results

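The 10 genes described here encode proteins that sit on lipid droplets or control the first step of triglyceride breakdown in the liver. They were chosen by name: the CIDE genes *Cidea*, *Cideb* and *Cidec*, the perilipin genes *Plin2*, *Plin3*, *Plin4* and *Plin5*, and the lipolysis genes *Pnpla2*, *Abhd5* and *G0s2*. Together they were 10 of the 21528 genes listed in the tables, and each was above 0 in all 6 libraries. RNA was sequenced from the liver of 3 wild-type (WT) mice and 3 TRIM24C52/55A mice, with 1 library per mouse. All 6 mice were 5 months old, were labelled as C57BL/6 (the study's methods give a C57Bl/6J background) and had received a high-fat diet (HFD) with 60% fat for 3 months, so that no mouse on another diet entered the comparison. In the TRIM24C52/55A mice, made with CRISPR/Cas9, alanine replaces the cysteines at positions 52 and 55 of TRIM24 in every cell that makes the protein, which affects its RING E3-ligase domain. The WT mice were littermates from matings of heterozygotes, and the knockin mice were homozygous. Because the knockin replaces codons, the transcript level of *Trim24* cannot check the genotype labels.

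A lipid droplet is a core of triglyceride and cholesterol ester under a phospholipid monolayer, and its surface proteins decide how large it grows and how fast it is consumed. CIDE proteins gather where droplets touch and move lipid from the smaller droplet into the larger, and in the liver CIDEB also takes part in the lipidation of very low density lipoprotein. Perilipins coat the surface and limit access of lipases, while PNPLA2 (also called ATGL) begins the hydrolysis of triglyceride, ABHD5 (CGI-58) activates it and G0S2 inhibits it. In fatty liver, PPARγ is known to drive several of these genes, among them *Cidec*, *Cidea*, *Plin2* and *Plin4*.

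The promoter windows of *Cidec*, *Plin2* and *Plin4* are shown because these were the members whose change passed the test. The sequences are from RefSeq (GRCm38.p6), run 5′ to 3′ on the strand of the gene and cover 250 bases before and 50 bases from the annotated start. Capitals mark exact matches, on either strand, to the nuclear receptor motif AGGTCA, the CCAAT box, the GC box GGGCGG, the E-box CACGTG or the TATA box TATAAA.
Cidec, chr6:113435711-113436010, minus strand: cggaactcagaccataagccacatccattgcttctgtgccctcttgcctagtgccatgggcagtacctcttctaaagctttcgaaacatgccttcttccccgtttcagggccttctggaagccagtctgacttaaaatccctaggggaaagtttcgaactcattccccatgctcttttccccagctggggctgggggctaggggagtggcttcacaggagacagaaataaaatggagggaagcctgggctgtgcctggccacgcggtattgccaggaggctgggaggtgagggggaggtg
Plin2, chr4:86670010-86670309, minus strand: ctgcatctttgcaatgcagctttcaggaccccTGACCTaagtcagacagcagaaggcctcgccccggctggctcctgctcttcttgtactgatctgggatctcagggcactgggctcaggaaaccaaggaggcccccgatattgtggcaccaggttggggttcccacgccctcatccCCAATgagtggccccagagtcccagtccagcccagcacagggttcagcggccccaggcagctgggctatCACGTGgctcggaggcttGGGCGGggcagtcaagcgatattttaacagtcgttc
Plin4, chr17:56109733-56110032, minus strand: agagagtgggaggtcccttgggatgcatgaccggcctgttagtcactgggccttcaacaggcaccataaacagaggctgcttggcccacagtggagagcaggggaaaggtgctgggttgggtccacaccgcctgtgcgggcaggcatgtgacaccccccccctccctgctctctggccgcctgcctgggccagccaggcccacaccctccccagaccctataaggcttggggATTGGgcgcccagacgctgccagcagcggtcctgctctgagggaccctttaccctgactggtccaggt
The *Cidec* window held none of these motifs, nor did a window at another *Cidec* start. The *Plin2* window held 4 matches: AGGTCA on the opposite strand (bases from the start: -218), a CCAAT box at -73, an E-box at -4 and a GC box at 14. The *Plin4* window held a CCAAT box on the opposite strand at -18.

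Promoter windows of the same kind were found for 9 of the 10 members (11 windows, since *Cidec* and *Plin5* have another start each). A CCAAT box was found in 4 of the 11 member windows, against 37.4% of 32851 promoters in the RefSeq table. These windows belonged to the 4 perilipin genes, and the other *Plin5* window lacked the box. No window of a CIDE or lipolysis gene held it. A GC box was found in 7 members, *Cidec* and *Plin4* being those without, against 35.7% of promoters. AGGTCA was found in *Abhd5*, *Plin2* and *Plin5* (16.3% of promoters), the E-box in *Plin2* (7.15%) and the TATA box in *Cideb* (13.6%). The full PPAR response element, searched as the exact letters AGGTCANAGGTCA, matched no member window and 13 of 32851 promoters (0.0396%). With so rare a sequence, its absence from 11 windows tells nothing about these genes. A match describes the letters of the window and nothing more. PPARγ sites that differ from these letters, or lie outside these windows, were not searched.

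The libraries were of like depth. 1 fragment per kilobase was worth 0.0607 to 0.0632 FPKM (fragments per kilobase of transcript, scaled to library size), and relative depths lay between 0.968 and 1.007. The FPKM of a WT library added up to between 644619 and 648221, and those of a knockin library to between 673244 and 676791. The hepatocyte marker *Apoa1* was at 5556 to 8183 FPKM in all libraries, and 7 of 8 hepatocyte markers measured summed to between 13701 and 14072 FPKM in WT and between 13064 and 15296 FPKM in TRIM24C52/55A livers. TRIM24C52/55A replicate 2 stood apart most clearly by adipocyte transcripts. Of 14 adipocyte markers, 13 were highest in it, and their sum was 78.9 FPKM there, 15 and 19.9 FPKM in the other knockin libraries and 18.6 to 28.3 FPKM in WT. The adipocyte hormones *Adipoq* and *Lep* and the adipocyte droplet coat gene *Plin1* had 4.55, 3.98 and 3.32 FPKM in replicate 2, while no other library exceeded 0.127 FPKM for any of them. *Fabp4*, a fatty acid carrier of adipocytes, had 45.5 FPKM in replicate 2, 6.55 and 8.28 FPKM in the other knockin livers and 13.2 to 16.9 FPKM in WT, and without replicate 2 it was lower in the knockin (log2 fold change -0.96, limma's adjusted p = 0.0107). *Cfd*, another adipocyte marker, named after its values were seen, was then lower as well (-2.05, adjusted p = 0.0205). *Sncg* had 2.85 FPKM in replicate 2 and at most 0.461 FPKM in the others. *Adrb3*, the adipocyte beta-adrenergic receptor, was higher in all TRIM24C52/55A livers (7.81 to 12.4 FPKM against 1.99 to 2.17). *Cidea*, *Cidec*, *Plin4* and *Pnpla2* are also known as genes of adipocytes, and each member's change is therefore given with and without replicate 2. Summed markers of non-parenchymal cells ranged in WT and TRIM24C52/55A livers from 108 to 138 and from 93.6 to 128 FPKM for macrophages (*Clec4f* first), from 89.4 to 94.9 and from 79.1 to 88.8 FPKM for endothelial cells (*Stab2*), from 215 to 226 and from 214 to 271 FPKM for stellate cells (*Lrat*), and from 29.2 to 55.3 and from 22.4 to 35 FPKM for cholangiocytes (*Krt19*). Of the hepatocyte, macrophage, endothelial, stellate and cholangiocyte markers, 3 passed the test singly and are named after their values were seen: the endothelial *Lyve1* was lower (log2 fold change -1.26, limma's adjusted p = 0.0281), the hepatocyte *Asgr1* was lower (-0.31, adjusted p = 0.0482) and the hepatocyte *Cps1* was higher (0.63, adjusted p = 0.0281). Without knockin replicate 2, *Asgr1* no longer passed (adjusted p = 0.0695), and the macrophage *Csf1r* (-0.49, adjusted p = 0.024) and *Cd68* (-0.39, adjusted p = 0.0414), the stellate *Col1a1* (-0.93, adjusted p = 0.00854) and the hepatocyte *Tat* (-0.81, adjusted p = 0.0357) passed as lower. Replicate 2 was also the highest library for 5 of 6 stellate markers. Its sum was above those of the other knockin livers for every marker list: hepatocyte (15296 against 13099 and 13064 FPKM), stellate (271 against 214 and 227 FPKM), macrophage (128 against 95.7 and 93.6 FPKM), endothelial (88.8 against 79.1 and 81.7 FPKM) and cholangiocyte markers (35 against 24.7 and 22.4 FPKM), as for the adipocyte markers above. Their part in the members' values was not tested. In whole liver, fewer cells of a type and less RNA per cell cannot be told apart.

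Of the droplet coat transcripts, *Cidec*, *Plin2* and *Plin4* fell in the TRIM24C52/55A liver, to 17.3%, 60.7% and 29.2% of their WT mean FPKM (for *Cidec*, 0.0812 times the WT mean without knockin replicate 2), and the other CIDE and perilipin genes did not pass the test. No member rose past the threshold. Values were compared as log2(FPKM + 1) with limma over all 12225 genes of at least 0.5 FPKM on average, with Benjamini-Hochberg adjustment and a threshold of 0.05 on the adjusted p-value. On that scale, the change of a gene with low FPKM is understated. Of the 10 members, 3 passed in either direction, against 7.72% of all genes tested, and all 3 were lower, against 6.09% of all genes. The members and the lists below were chosen with earlier results of these data known, so such shares are descriptions and not tests. On average 9 members were lower and *Abhd5* was higher, and the median log2 fold change was -0.65 over the members and -0.08 over all genes tested. In 5 members every TRIM24C52/55A library was below every WT library, which 22.5% of all genes showed, and in *Abhd5* every knockin library was above, which 6.31% showed. The p-values measure the spread between these mice. Without TRIM24C52/55A replicate 2, *Pnpla2* also passed, so that 4 of 10 members were lower, against 8.52% of the genes then tested. *Plin2* alone passed without WT replicate 1, WT replicate 3 or TRIM24C52/55A replicate 1, and with no filter on low FPKM. In the same order, 311 of 12193, 300 of 12199, 294 of 12255 and 347 of 21528 genes then passed, against 944 of 12225. Over all genes, 78.8% of those that passed were lower, which became 61.9% with median-of-ratios scaling, 59.7% with quantile normalization and 87.3% with TPM (FPKM rescaled to a fixed total). Each member kept its direction under all 3.

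**Figure D1:**
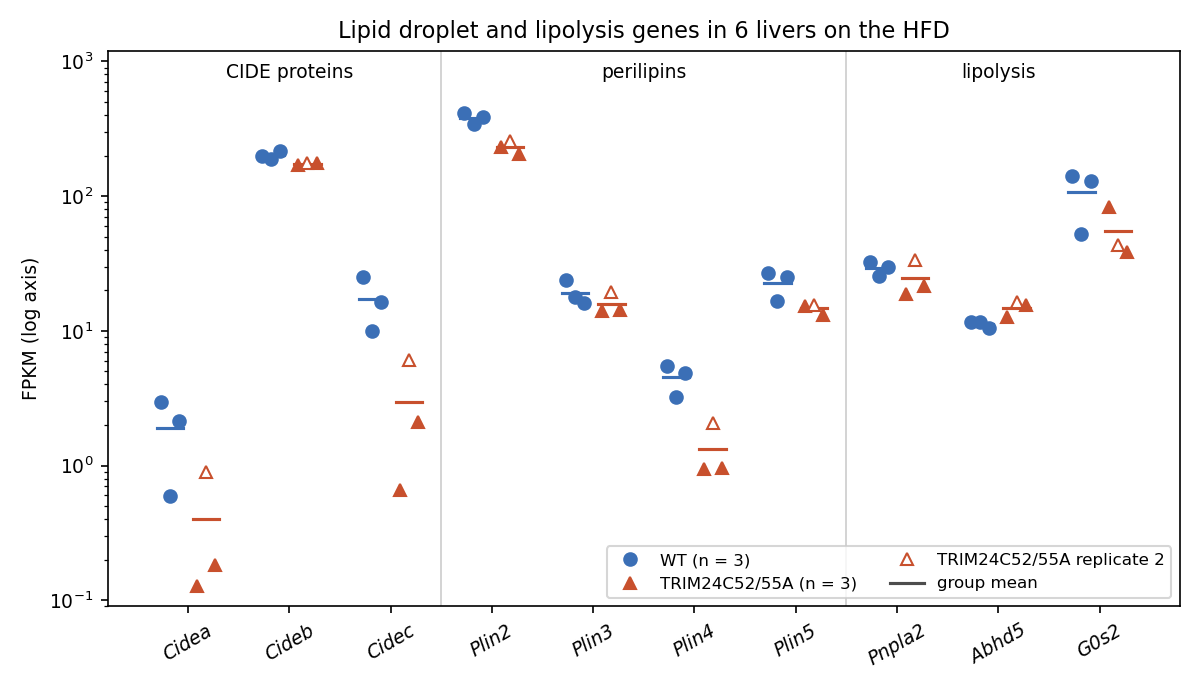
FPKM (log axis) of the 10 members in each library, WT as circles, TRIM24C52/55A as triangles (replicate 2 open), with a line at each group mean (n = 3 each). The groups are apart for *Cideb*, *Cidec*, *Plin2*, *Plin4* and *Plin5*, with the knockin lower, and for *Abhd5*, with the knockin higher. Among knockin livers, replicate 2 is highest for 9 members.

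The CIDE genes were unequal in level. *Cideb*, the CIDE gene of hepatocytes, was by far the most abundant, while *Cidec* and *Cidea* are scarce in lean liver and known to be induced in fatty liver. Of the 3, *Cidec* alone passed the test. *Cidec*, which enlarges droplets, had 25.2, 9.94 and 16.4 FPKM in the WT livers and 0.663, 6.12 and 2.12 FPKM in the TRIM24C52/55A livers, here and below in the order of replicates 1 to 3. All knockin values were below all WT values, with knockin replicate 2 and WT replicate 2 nearest to each other. The mean was 17.2 ± 7.64 FPKM (SD, n = 3) in WT and 2.97 ± 2.82 FPKM (SD, n = 3) in the knockin. The log2 fold change was -2.36 (standard error 0.50, 95% interval -3.51 to -1.21), with an adjusted p of 0.0286 from limma. Without TRIM24C52/55A replicate 2, it was -2.91 with an adjusted p of 0.00873. The call was lost on leaving out WT replicate 1, WT replicate 3, TRIM24C52/55A replicate 1 or TRIM24C52/55A replicate 3, with adjusted p-values of 0.096, 0.099, 0.080 and 0.061. It was also lost with no filter on low FPKM (0.101), robust variance (0.085) and a replicate block (0.070), which made 7 of 15 alternative fits.

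*Cidea*, a relative of *Cidec* best known from brown fat, had 2.98, 0.59 and 2.13 FPKM in WT and 0.128, 0.889 and 0.184 FPKM in TRIM24C52/55A livers. The groups overlapped, since WT replicate 2 was below knockin replicate 2. The log2 fold change of -0.99 (standard error 0.34, 95% interval -1.76 to -0.22) had an adjusted p of 0.12, and without knockin replicate 2 it was -1.23 with an adjusted p of 0.0709 from limma. Without WT replicate 2, the adjusted p was 0.0302. With a pseudocount of 0.1 FPKM in place of 1, the log2 fold change was -2.07 (adjusted p = 0.112). These values rest on few reads: if all fragments fell on its longest annotated transcript, of 1115 bases, the FPKM correspond to about 54, 11 and 38 fragments in WT and 2, 16 and 3 in the knockin. The tables give *Cidea* an interval of 46.6 kb, where the annotated gene has 24.2 kb and shares 500 bases with *B430212C06Rik* on the opposite strand. *B430212C06Rik* had 0.183, 0.0232 and 0.14 FPKM in WT and 0.0335, 0.17 and 0.0309 FPKM in the knockin. Like *Cidea*, it was lowest in replicate 2 among WT libraries and highest in replicate 2 among knockin libraries. So was *Impa2* on the same strand, which the interval reaches and which shares no base with *Cidea*. *Impa2* had 4.43, 2.22 and 3.17 FPKM in WT and 1.78, 2.25 and 1.56 FPKM in the knockin. Whether reads were shared was not tested.

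*Cideb* had 197, 189 and 218 FPKM in WT and 169, 176 and 175 FPKM in TRIM24C52/55A livers. Here the groups did not overlap, and the spread was narrow, with coefficients of variation of 7.47% and 2.21%. On the log2 scale the change was -0.21 (standard error 0.08, 95% interval -0.39 to -0.03), and with an adjusted p of 0.147 from limma it did not pass the threshold. Without knockin replicate 2 it was -0.22 (adjusted p = 0.139), and with quantile normalization -0.07. The annotated gene shares 1451 bases with *Nop9* on the opposite strand, which was at 6.48 to 7.66 FPKM in all libraries.

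Of the perilipin genes, *Plin2* and *Plin4* fell, while *Plin5* and *Plin3* did not pass the test. *Plin2*, the main droplet coat of the hepatocyte, was the most abundant member. It had 413, 346 and 385 FPKM in WT and 231, 257 and 206 FPKM in TRIM24C52/55A livers, with a wide gap between the groups. The mean was 381 ± 33.5 FPKM (SD, n = 3) in WT and 231 ± 25.5 FPKM (SD, n = 3) in the knockin. The log2 fold change was -0.72 (standard error 0.10, 95% interval -0.96 to -0.48), with an adjusted p of 0.00774 from limma. Of the members, *Plin2* was the one that passed in each of the 15 alternative fits, with adjusted p-values from 0.00512 to 0.0402, and without knockin replicate 2 its log2 fold change was -0.80.

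*Plin4*, a perilipin abundant in adipocytes that coats nascent droplets, had 5.44, 3.25 and 4.89 FPKM in WT and 0.939, 2.06 and 0.958 FPKM in TRIM24C52/55A livers. All knockin values were below all WT values, and the mean went from 4.52 ± 1.14 to 1.32 ± 0.645 FPKM (SD, n = 3 each). On the log2 scale the change was -1.26 (standard error 0.22, 95% interval -1.76 to -0.76), with an adjusted p of 0.0142 from limma, and without knockin replicate 2 it was -1.48 (adjusted p = 0.00699). Leaving out WT replicate 1, WT replicate 3 or TRIM24C52/55A replicate 1 raised the adjusted p to 0.058, 0.064 and 0.064. For *Plin4* the tables give an interval of 30.1 kb, where the annotated gene has 9.2 kb. The interval takes in *Hdgfl2* on the opposite strand, which shares 17 bases with *Plin4* and had 7.21 to 9.08 FPKM in all libraries.

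*Plin5*, which ties droplets to mitochondria in cells that burn fat, lies 1.8 kb from *Plin4* on chromosome 17 and on the same strand. It had 26.7, 16.7 and 24.9 FPKM in WT and 15.2, 15.6 and 13.2 FPKM in TRIM24C52/55A livers. The knockin values were all lower, but WT replicate 2 lay close to them. The log2 fold change was -0.58 (standard error 0.17, 95% interval -0.95 to -0.20) with an adjusted p of 0.075, and without knockin replicate 2 it was -0.62 with an adjusted p of 0.0845 from limma. Without WT replicate 2 it passed (adjusted p = 0.014), as it did with TPM (adjusted p = 0.043).

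*Plin3*, a widely expressed perilipin that moves between cytosol and droplets, lies in the same stretch of chromosome 17, 192.3 kb from end to end with *Plin4*. It had 24, 17.7 and 16.1 FPKM in WT and 14, 19.3 and 14.3 FPKM in TRIM24C52/55A livers, and the groups overlapped. Its log2 fold change was -0.26 (95% interval -0.64 to 0.13) with an adjusted p of 0.408, and without knockin replicate 2 it was -0.40 with an adjusted p of 0.151 from limma. Without WT replicate 1, it was -0.10 (adjusted p = 0.793).

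In the lipolysis group no gene passed with all libraries, and the lipase, its activator and its inhibitor did not share a direction. *Pnpla2* had 32.5, 25.4 and 29.9 FPKM in WT and 18.9, 33.6 and 21.6 FPKM in TRIM24C52/55A livers. Knockin replicate 2 held the highest value of all 6 libraries, while the other knockin livers were below every WT liver. With all libraries, the log2 fold change was -0.27 (standard error 0.19, 95% interval -0.72 to 0.18) and the adjusted p 0.462. Without replicate 2, it was -0.50 (standard error 0.12, 95% interval -0.78 to -0.23) with an adjusted p of 0.0408 from limma. Without TRIM24C52/55A replicate 1, it was -0.11 (adjusted p = 0.834).

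*Abhd5* had 11.6, 11.7 and 10.5 FPKM in WT and 12.6, 16.5 and 15.6 FPKM in TRIM24C52/55A livers, with every knockin value above every WT value. The mean was 1.32 times that of WT (14.9 ± 2.06 against 11.3 ± 0.632 FPKM, SD, n = 3 each). The log2 fold change was 0.37 (standard error 0.11, 95% interval 0.11 to 0.62), and the adjusted p of 0.0894 from limma missed the threshold. It passed with median-of-ratios scaling (0.040) and with quantile normalization (0.0374), and without knockin replicate 2 the log2 fold change was 0.29 (adjusted p = 0.135). The annotated gene shares 950 bases with *A730085K08Rik* on the opposite strand, which reached at most 0.0505 FPKM.

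*G0s2* had 141, 52.6 and 129 FPKM in WT and 83.5, 43.5 and 38.3 FPKM in TRIM24C52/55A livers. WT replicate 2 lay among the knockin values, and the log2 fold change of -0.91 (standard error 0.40, 95% interval -1.83 to 0.00) had an adjusted p of 0.213. Without knockin replicate 2 it was -0.79, with an adjusted p of 0.314 from limma. *G0s2* was the member that was not highest in knockin replicate 2. The annotated gene, of 1.1 kb, lies within *Lamb3* on the opposite strand, and the tables give it an interval of 140.8 kb. *Lamb3* had 2.72, 1.77 and 3.61 FPKM in WT and 0.674, 1.05 and 1.32 FPKM in TRIM24C52/55A livers, and the interval also takes in *Hsd11b1* on the same strand, which shares no base with *G0s2* and had 443, 393 and 468 FPKM in WT and 353, 364 and 349 FPKM in the knockin. Whether these genes share reads was not tested. The sources used here do not say whether counting used strand.

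**Figure D2:**
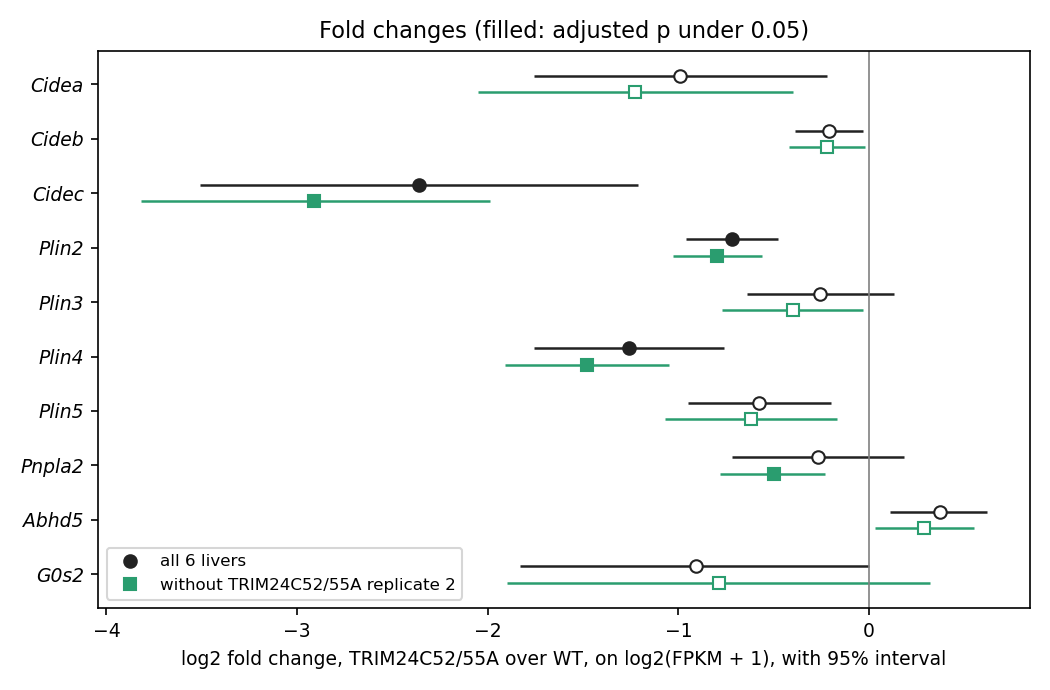
Log2 fold change of each member, TRIM24C52/55A over WT, on log2(FPKM + 1), with its 95% interval from limma. Circles use all 6 livers and squares leave out TRIM24C52/55A replicate 2, with filled symbols where the adjusted p was under 0.05. *Pnpla2* is filled only without replicate 2, at -0.50, and *Abhd5* alone is to the right of 0.

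Shares and ratios within a library do not depend on how libraries are scaled. *Cideb* made up 87.5%, 94.7% and 92.2% of the summed CIDE FPKM in WT and 99.5%, 96.2% and 98.7% in TRIM24C52/55A livers. All knockin shares were higher, by 6.67 percentage points on average (91.5 ± 3.66% against 98.1 ± 1.75%, SD, n = 3 each). The exact two-sided permutation test gave p = 0.1, the smallest value that 3 against 3 libraries allow. Without knockin replicate 2, the shares differed by 7.65 percentage points. The share of *Cidec* went from 7.7 ± 3.17% to 1.64 ± 1.52% (SD, n = 3 each), and the summed CIDE FPKM from 220 ± 19 to 177 ± 6.67.

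The perilipin coat kept *Plin2* as its main transcript. *Plin2* made up 88%, 90.2% and 89.4% of the summed perilipin FPKM in WT and 88.4%, 87.4% and 87.9% in TRIM24C52/55A livers (exact two-sided permutation p = 0.2), so that the groups overlapped. The difference was -1.28 percentage points, and -1.03 without knockin replicate 2. The summed perilipin FPKM were 469, 384 and 430 in WT and 261, 294 and 235 in the knockin. Within that smaller sum, the share of *Plin3* was higher in every knockin library (6.01 ± 0.601% against 4.49 ± 0.702%, SD, n = 3 each). The share of *Plin4* was lower in every knockin library (0.49 ± 0.185% against 1.05 ± 0.175%), and that of *Plin5* overlapped.

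For the balance of activator to lipase, *Abhd5* stood at 0.357, 0.459 and 0.352 times the FPKM of *Pnpla2* in WT and at 0.664, 0.492 and 0.72 times in TRIM24C52/55A livers. The log2 ratio was higher by 0.68 (-1.37 ± 0.22 in WT and -0.70 ± 0.29 in the knockin, SD, n = 3 each), with no overlap and an exact two-sided permutation p of 0.1, the smallest possible. Knockin replicate 2 was the nearest to WT, and without it the log2 ratio was higher by 0.84. The balance of inhibitor to lipase overlapped, with *G0s2* at 4.33, 2.07 and 4.33 times *Pnpla2* in WT and at 4.41, 1.3 and 1.77 times in the knockin (exact two-sided permutation p = 0.4). Its log2 ratio differed by -0.65 with all libraries and by -0.27 without knockin replicate 2 and -1.16 without knockin replicate 1. These are ratios of transcripts, and the proteins were not measured in these libraries.

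**Figure D3:**
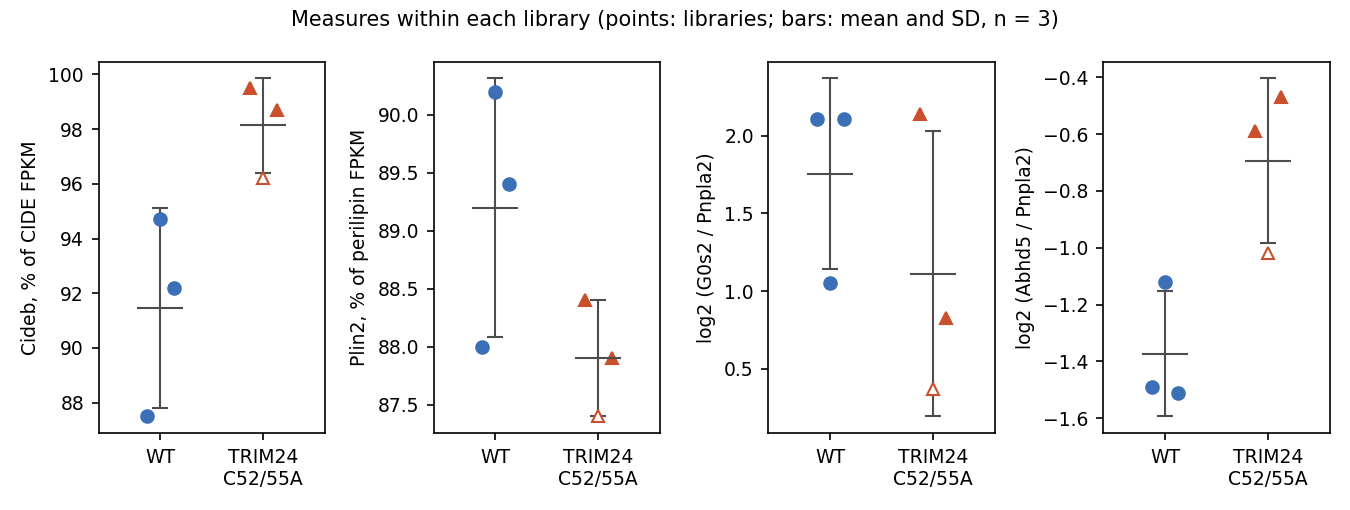
From left to right, the share of *Cideb* in summed CIDE FPKM, the share of *Plin2* in summed perilipin FPKM, and the log2 ratios of *G0s2* and *Abhd5* to *Pnpla2*. Points are libraries (TRIM24C52/55A replicate 2 open), bars are the mean and SD (n = 3), and the axes do not start at 0. The groups are apart for the *Cideb* share and for *Abhd5* to *Pnpla2*.

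By FPKM, a level per length of transcript, the order in WT was *Plin2*, *Cideb*, *G0s2*, *Pnpla2*, *Plin5*, *Plin3*, *Cidec*, *Abhd5*, *Plin4* and *Cidea*. The ranges of *Plin2*, *Cideb*, *G0s2* and *Pnpla2* were separate from neighbour to neighbour. From *Pnpla2* to *Abhd5* each gene overlapped its neighbour, so the order of neighbours is not settled by 3 mice. The range of *Pnpla2* (25.4 to 32.5 FPKM) was nonetheless wholly above those of *Plin3*, *Cidec* and *Abhd5*. Those of *Plin5* and *Plin3* were wholly above that of *Abhd5* (10.5 to 11.7 FPKM). In the TRIM24C52/55A liver the first 4 genes held the same places. *Cidec*, at 2.97 FPKM, then came after *Abhd5* and *Plin5*, with a range that no longer met theirs. The spread between mice also differed by gene. In WT the coefficient of variation was 63.8% for *Cidea*, 44.5% for both *Cidec* and *G0s2*, 8.8% for *Plin2* and 5.62% for *Abhd5*. WT replicate 2 was the lowest WT library for 8 members.

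The genes most like *Cidec* and *Plin2* over the 6 libraries were found by the root-mean-square difference of their log2(FPKM + 1) values, each centred on its WT mean. For *Cidec* these were *2010003K11Rik* (0.38), *Rgs16* (0.48), a regulator of G protein signalling, and *Apoa4* (0.56), an apolipoprotein of liver and intestine. *Apoa4* had 1031, 556 and 500 FPKM in WT and 76.9, 119 and 137 FPKM in TRIM24C52/55A livers. For *Plin2* they were *AI506816* (0.04), *5031439G07Rik* (0.07) and the mitochondrial carrier gene *Slc25a47* (0.08). *AI506816* had 1.57, 1.07 and 1.26 FPKM in WT and 0.375, 0.498 and 0.274 FPKM in the knockin. At so low a level its change is understated on this scale, so its likeness to *Plin2* is not one of fold change. *Slc25a47* had 358, 312 and 347 FPKM in WT and 206, 245 and 165 FPKM in the knockin. Among the members, by this measure, *Plin4* was closest to *Cidec* (0.90), before *Cidea* (1.05), and *Plin5* to *Plin2* (0.17). With a pseudocount of 0.1, log2 fold changes were -2.88 for *Cidec*, -2.07 for *Cidea* and -1.76 for *Plin4*. The ranking with that pseudocount was not tested. The libraries share the genotype contrast, and the likeness is a description.

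Other genes of droplet formation were compared as a list of 23 genes tested. Of these, 3 fell (6.09% of all genes did) and none rose, and 20 did not pass, with a median log2 fold change of -0.07 against -0.08 over all genes. *Fitm1* and *Fitm2* encode the endoplasmic reticulum proteins that help droplets to bud. *Fitm1* had 46.2, 45.1 and 56.4 FPKM in WT and 19.5, 19 and 28.1 FPKM in TRIM24C52/55A livers (log2 fold change -1.13, standard error 0.16, adjusted p = 0.00662 from limma). *Fitm2* had 23.1, 20.4 and 24.4 FPKM in WT and 14.8, 13.5 and 15 FPKM in the knockin (log2 fold change -0.61, adjusted p = 0.00943). Both passed in all 15 alternatives, and for both knockin replicate 2 was the lowest of all libraries. The tables give *Fitm1* an interval of 17.0 kb, where the annotated gene has 1.3 kb, and their intervals were 10.01 times the annotated gene for *Mettl7b* and 7.19 times for *Aup1*. *Hsd17b13*, a droplet enzyme of hepatocytes, had 396, 330 and 354 FPKM in WT and 247, 294 and 256 FPKM in the knockin (log2 fold change -0.44, adjusted p = 0.0348), and it lost its call in 10 of the 15. Of the abundant genes that did not pass, *Mettl7b* had a log2 fold change of -0.28 (adjusted p = 0.0796), and those of *Mettl7a1* (0.05), *Hsd17b11* (-0.04), *Aup1* (-0.06) and *Rab18* (-0.01) changed sign with the scaling.

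Of 14 other lipases and genes of droplet breakdown tested, 3 fell, *Ces3b* rose and 10 did not pass. Over all genes 7.72% passed, and the median log2 fold change was -0.19 over the list and -0.08 over all genes. *Mgll*, the lipase that completes triglyceride breakdown by cleaving monoglyceride, had 95.4, 82.9 and 107 FPKM in WT and 43.3, 46.1 and 47.4 FPKM in TRIM24C52/55A livers (log2 fold change -1.04, standard error 0.10, adjusted p = 0.00162 from limma). *Ces3b*, a carboxylesterase of the hepatocyte, had 69.3, 95.1 and 61.2 FPKM in WT and 205, 205 and 242 FPKM in the knockin (log2 fold change 1.54, standard error 0.16, adjusted p = 0.00178). Both kept their calls in all 15 alternatives. *Lipa*, the acid lipase of lysosomes, and *Ddhd2*, a triglyceride lipase best known from brain, fell by 0.53 and 0.49 on the log2 scale (adjusted p = 0.011 and 0.0167). Without WT replicate 1, or without TRIM24C52/55A replicate 1, *Mgll* and *Ces3b* alone passed. *Ddhd2* also lost its call without WT replicate 2, without WT replicate 3 and with the replicate block (adjusted p = 0.062, 0.0703 and 0.0595), which made 5 of the 15 alternatives. Among abundant genes that did not pass, log2 fold changes were -0.13 for the chaperone gene *Hspa8*, 0.10 for *Aadac*, 0.01 for *Ces1d*, -0.12 for *Lamp2* and -0.19 for *Pnpla7*. Those of *Hspa8*, *Ces1d* and *Lamp2* changed sign in at least 1 alternative.

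Of 8 regulators known for these genes, *Pparg* alone fell with all libraries and 7 did not pass (7.72% of all genes passed), with a median log2 fold change of -0.12 against -0.08 over all genes. *Pparg* encodes PPARγ, the nuclear receptor of fat storage. It had 9.42, 5.55 and 8.39 FPKM in WT and 1.9, 2.27 and 2.71 FPKM in TRIM24C52/55A livers, a log2 difference of -1.40 (standard error 0.18, limma's adjusted p = 0.00491). It passed in all 15 alternatives and was also -1.40 without knockin replicate 2. *Srebf1*, the regulator of fatty acid synthesis, had 63.2, 76 and 82.1 FPKM in WT and 42.1, 72.4 and 48.3 FPKM in the knockin. Its log2 fold change of -0.47 had an adjusted p of 0.185, and without knockin replicate 2 it was -0.69 with an adjusted p of 0.0203. *Ppara*, the fatty acid receptor that drives oxidation, had a log2 fold change of -0.29 (adjusted p = 0.407) and of -0.15 without knockin replicate 2, and that of *Ppard* was 0.59 (adjusted p = 0.308) with all libraries and 0.22 without knockin replicate 2. *Rxra* (-0.12) and *Creb3l3* (0.04) did not pass and changed sign in at least 1 alternative.

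**Figure D4:**
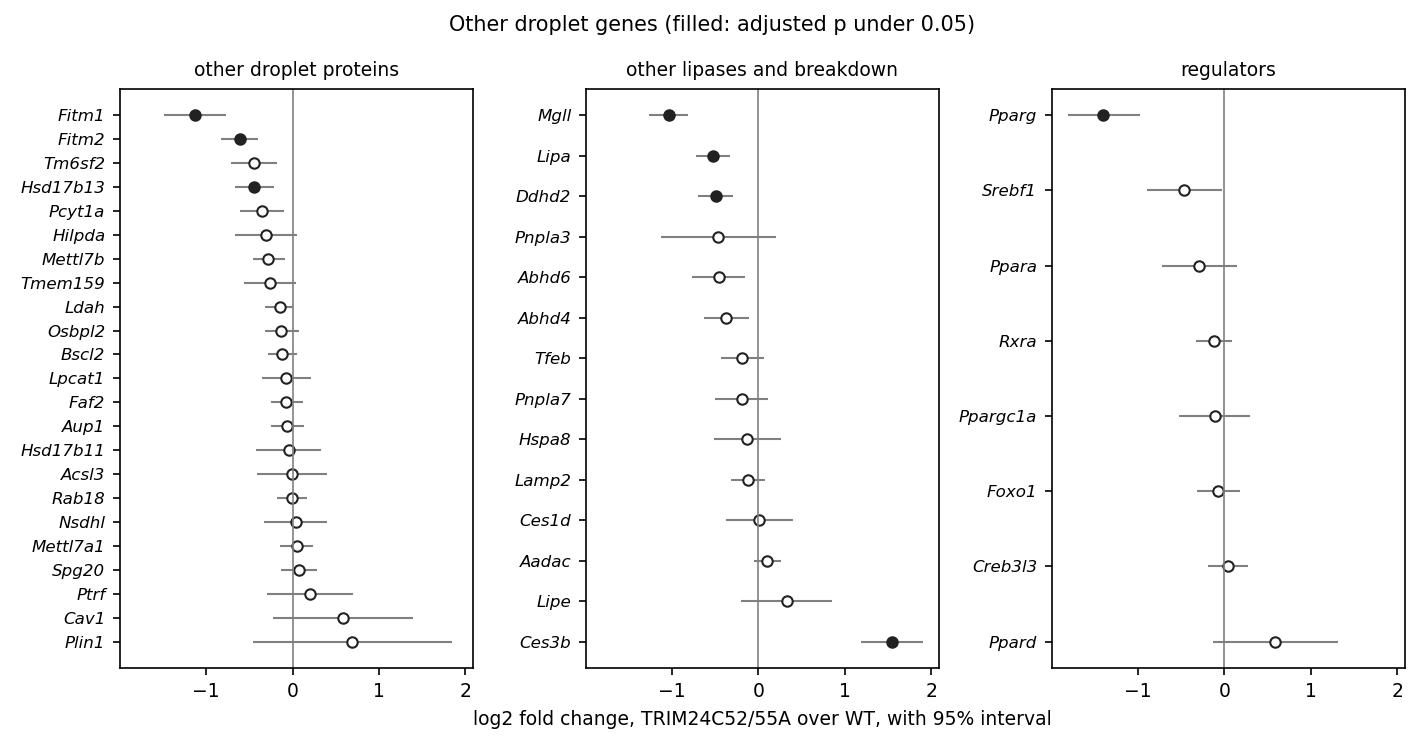
Log2 fold changes, TRIM24C52/55A over WT, with 95% intervals from limma, of 23 other droplet genes, 14 other lipase and breakdown genes and 8 regulators, filled where the adjusted p was under 0.05. *Ces3b*, at 1.54, is the filled point to the right of 0, and *Fitm1*, *Mgll* and *Pparg* lie furthest to the left.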

How the data were processed

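Liver RNA of 6 mice was compared by genotype, 3 WT against 3 TRIM24C52/55A, as the labels give it. The authors deposited a table of FPKM per mouse, which lists the genes above 0 (others were taken as 0). The submitters' processing notes name GRCm38, bcl2fastq, Salmon 0.14.0 and DESeq2 1.30.0 with no roles, and the counter and annotation behind the FPKM are not given in the sources used here. FPKM hold no totals, so depth was read from the lowest steps between values. The study's methods give a general test for any pair of groups and name none for the RNA-Seq itself. Genes averaging 0.5 FPKM or more entered limma 3.58.1 (R 4.3.3), with a mean-variance trend on log2(FPKM + 1), and p-values were adjusted by Benjamini-Hochberg. Shares and ratios had exact two-sided permutation tests. On simulated data of 12225 genes, 96.5% of 113 genes changed 4-fold and 75.9% of 87 changed 2-fold were recovered, with 3 calls among 12025 unchanged genes. The changed genes were drawn from those averaging at least 2 FPKM, so these rates do not cover scarcer genes such as *Cidea*. Loci were matched by gene ID to GENCODE M21, which held 21454 of 21528 IDs. Fragment numbers use the longest annotated transcript. Named genes are every member and, of each other list, the genes that passed and the 5 others of highest mean FPKM. Adipocyte markers named are *Adipoq*, *Lep*, *Plin1* and the 3 others highest in TRIM24C52/55A replicate 2. *Spart*, *Cavin1* and *Trarg1* were read under older names (*Spg20*, *Ptrf*, *Tusc5*), and *Alb* was not used here. The members and lists were chosen with earlier results of these data known. Summaries were made with pandas 2.3.3 and scipy 1.17.1 in Python 3.11.15.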

Additional observations from a re-analysis of the deposited data

How the results depend on the processing

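Each fit was repeated under 15 alternatives: a pseudocount of 0.1, no filter, a mean of at least 1 FPKM, TPM, median-of-ratios scaling, quantile normalization, no variance trend, robust variance, a replicate block, and each of the 6 libraries left out. Every member kept its direction in all 15. The number of members that passed, 3, was 1 (*Plin2*) with no filter on low FPKM and ranged from 1 to 5 with a library left out: 1 without WT replicate 1, WT replicate 3 or TRIM24C52/55A replicate 1, and 5 (with *Cidea* and *Plin5*) without WT replicate 2. *Cidec* also lost its call with robust variance (adjusted p = 0.085) and no filter (0.101), as did *Plin4* with no filter (0.065). With TPM, the other droplet genes that passed rose from 3 to 6 and the other lipase genes from 4 to 6. With a library left out, other droplet genes numbered 2 to 3, other lipase genes 2 to 4, and regulators 1 to 2. The cause of these changes was not tested. Over all genes, those that passed numbered 944, with 347 when no filter was used, 1555 with TPM, 578 with the replicate block and 294 to 1280 with a library left out.

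Replicate numbers gave no sign of pairing: deviations of same-numbered libraries correlated at -0.12, -0.10 and 0.00, and those of other pairs at -0.05 to 0.14. With 3 libraries per group this cannot exclude pairing. With the replicate block, 2 members (*Plin2*, *Plin4*), 2 other droplet genes, 3 other lipase genes and 1 regulator passed, and *Cidec* had an adjusted p of 0.070. The blocked exact sign-flip permutation tests gave p = 0.25 for the *Cideb* share and the *Abhd5* to *Pnpla2* ratio and 0.5 for the *Plin2* share and the *G0s2* to *Pnpla2* ratio, where 0.25 is the smallest possible.

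Log2 fold changes near 0 changed sign for genes that did not pass. With median-of-ratios scaling these were *Hsd17b11* (0.06), *Aup1* (0.04) and *Rab18* (0.09), and with quantile normalization *Hsd17b11* (0.12), *Aup1* (0.10), *Rab18* (0.14), *Lamp2* (0.05) and *Rxra* (0.04). With TPM these were *Mettl7a1* (-0.01), *Ces1d* (-0.06) and *Creb3l3* (-0.02). With a library left out, values ranged from -0.0045 to 0.10 for *Mettl7a1*, -0.23 to 0.10 for *Hsd17b11*, -0.04 to 0.05 for *Rab18*, -0.25 to 0.08 for *Hspa8*, -0.15 to 0.15 for *Ces1d* and -0.01 to 0.13 for *Creb3l3*.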
